A study of Mus musculus with 12 samples.

Results

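The response of Ezh2-deficient dendritic cells to lipopolysaccharide (LPS, a component of the Gram-negative bacterial cell wall) was read from the 6 arrays, of 12 in the series, whose titles join the knockout with LPS or with no treatment, 3 of each. The 2 LPS arrays and 2 untreated arrays numbered 1 and 2 gave the comparison, and the 4 wild type arrays of the same numbers joined the estimate of the spread. The pair numbered 3 is set apart throughout. The groups used were Ezh2-deficient cells with LPS, Ezh2-deficient cells without it, wild type cells with LPS and wild type cells without it, from mice of the strain the labels call C57/B6. Both genotypes carried a floxed Ezh2 gene, Ezh2f/f, and the deficient cells also carried Mx-cre, a Cre recombinase under the interferon-inducible Mx1 promoter. The labels do not say how or when Cre was switched on. Marrow was grown over 6 or 7 days in GM-CSF (20 ng/ml) plus IL-4 (10 ng/ml), the medium being replaced on day 2 by one with GM-CSF at 10 ng/ml, and mature cells had LPS overnight at 100 ng/ml. The labels add 6 hours without serum for mature cells of some experiments, unnamed. No label says that the arrays of a group came from separate animals or cultures. The tests therefore weigh changes against the spread among these arrays, which may be technical.

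Dendritic cells take up antigen in tissues and present it to T cells in lymph nodes. LPS bound to Cd14 and the Tlr4/Ly96 receptor signals through Myd88 to NF-kB and MAP kinases, and through Ticam1 to interferon-beta, which switches on interferon-stimulated genes by way of Jak, Stat and Irf proteins. Maturation is known for a switch from uptake to presentation, costimulation, cytokine release and migration towards the Ccr7 ligands. Ezh2 is a catalytic subunit of Polycomb repressive complex 2, which methylates lysine 27 of histone H3.

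Bead arrays measured 45281 probes, and 17892 to 19611 of them were detected per array with median intensities of 108 to 119. Levels are normalized log2 intensities, given for array 1 and then array 2. Changes are LPS minus no LPS on the log2 scale, with the SE of the fit (2 arrays a group). The genotype labels were checked on Cdkn2a, a cell cycle inhibitor and known Polycomb target, and Igf2bp3, an RNA-binding protein. Cdkn2a stood at 7.84 and 7.53 in Ezh2-deficient cells with LPS and at 7.49 and 7.28 without, while the pair labelled Ezh2-deficient 3 read 4.57 with LPS and 4.70 without. Igf2bp3 stood at 10.58 and 10.97 with LPS and 10.66 and 10.89 without, and at 7.33 and 7.11 in pair 3. Wild type arrays 1 and 2 read 4.55 to 5.04 for Cdkn2a and 7.03 to 8.25 for Igf2bp3, so pair 3 lay at the wild type level for both. The arrays labelled wild type 3 go against their labels in both ways, with Cdkn2a at 7.63 and Il6 at 4.93 on the array labelled as LPS-treated and 8.08 and 11.99 on the one labelled as untreated, and they enter only the normalization, the detection filter and 1 alternative fit. Of the markers of dendritic cells, Itgax fell with LPS, H2-Ab1, Cd74, Irf4, Zbtb46 and Kmo were detected on all 4 arrays and not called, and Flt3 did not pass the detection filter. Kmo was lower with LPS, at -1.79 (SE 0.65, adjusted p 0.065, limma), while the other uncalled markers changed by 0.07 to 0.60.

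The stretches before the start sites of 7 genes are shown because they carry, or lack, the letters that NF-kB and interferon-activated factors are known to bind, in genes that rose or fell here. Each holds the 250 bases before a start site, credited to RefSeq (mouse build GRCm38.p6) and read 5′ to 3′ on the gene's strand. Capitals mark the kappaB motif in Il6 and Tnfaip3 and the ISRE core (GAAA, any 2 bases, GAAA, on either strand) in Isg15, Ifit3 and Rsad2, while the stretches of Mrc1 and Mgl2 hold neither. Il6 (chr5:30012864-30013113, plus strand) holds its motif 44 bases before the start, Tnfaip3 (chr10:19015411-19015660, minus strand) has 2 copies that begin 125 and 12 bases before it, and Isg15 (chr4:156200819-156201068, minus strand) has 3 overlapping cores that begin 78, 72 and 66 bases before it. Ifit3 (chr19:34583279-34583528, plus strand) has 2 cores, at 156 and 122 bases, and Rsad2 (chr12:26456453-26456702, minus strand) has 1, at 120 bases. Mrc1 lies at chr2:14229164-14229413 and Mgl2 at chr11:70130107-70130356, both on the plus strand. These 7 were picked and do not stand for risen or fallen genes as a whole. Irf7, Cxcl9, Il1a and Il12a, among the 12 largest rises, hold neither motif. Rnase6, among the 12 largest falls, holds an ISRE core 20 bases before a start site, and another start site of Tnfaip3 has neither motif.
Il6: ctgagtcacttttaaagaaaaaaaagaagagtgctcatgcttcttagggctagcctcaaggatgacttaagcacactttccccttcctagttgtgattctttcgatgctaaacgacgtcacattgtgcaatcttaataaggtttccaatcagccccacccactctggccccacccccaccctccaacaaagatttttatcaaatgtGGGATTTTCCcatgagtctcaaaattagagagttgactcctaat
Tnfaip3: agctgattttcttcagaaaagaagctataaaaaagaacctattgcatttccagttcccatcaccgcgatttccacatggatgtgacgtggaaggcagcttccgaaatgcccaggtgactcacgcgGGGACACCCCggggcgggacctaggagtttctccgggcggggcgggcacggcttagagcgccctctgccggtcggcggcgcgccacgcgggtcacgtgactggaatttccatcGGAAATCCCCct
Isg15: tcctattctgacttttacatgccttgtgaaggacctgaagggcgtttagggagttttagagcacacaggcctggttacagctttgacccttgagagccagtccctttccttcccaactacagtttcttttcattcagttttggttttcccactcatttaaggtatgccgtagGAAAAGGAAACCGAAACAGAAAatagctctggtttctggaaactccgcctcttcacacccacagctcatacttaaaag
Ifit3: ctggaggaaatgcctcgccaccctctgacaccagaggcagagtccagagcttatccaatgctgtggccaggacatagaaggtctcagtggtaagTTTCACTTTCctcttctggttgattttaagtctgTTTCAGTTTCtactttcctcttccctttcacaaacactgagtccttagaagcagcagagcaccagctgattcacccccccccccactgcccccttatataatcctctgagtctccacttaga
Rsad2: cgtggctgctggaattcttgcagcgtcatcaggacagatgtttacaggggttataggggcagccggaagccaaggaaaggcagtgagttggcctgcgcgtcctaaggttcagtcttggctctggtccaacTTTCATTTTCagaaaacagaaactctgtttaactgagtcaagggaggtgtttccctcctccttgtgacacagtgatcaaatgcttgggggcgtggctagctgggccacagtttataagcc
Mrc1: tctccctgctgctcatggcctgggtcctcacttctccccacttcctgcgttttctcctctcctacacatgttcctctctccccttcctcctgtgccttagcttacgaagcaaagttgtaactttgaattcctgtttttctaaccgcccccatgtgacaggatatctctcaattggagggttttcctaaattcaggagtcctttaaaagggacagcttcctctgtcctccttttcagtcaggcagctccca
Mgl2: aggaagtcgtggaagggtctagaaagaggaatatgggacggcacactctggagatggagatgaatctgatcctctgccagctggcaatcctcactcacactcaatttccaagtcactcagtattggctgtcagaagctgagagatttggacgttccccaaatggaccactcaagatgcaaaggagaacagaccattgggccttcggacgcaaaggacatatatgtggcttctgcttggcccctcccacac

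In the main fit, over 1 gene in 3 was called as changed with LPS in the Ezh2-deficient cells. Of 10908 genes tested, 1662 rose (15.2%) and 2264 fell (20.8%) at an adjusted p under 0.05 (limma, Benjamini-Hochberg), 3926 in all (36.0%), and 4979 had an unadjusted p under 0.05. The counts of the gene lists below are to be read beside these shares of risen and fallen genes. At least 2-fold changes among these were 1096 rises (10.0%) and 1419 falls (13.0%), and at least 32-fold changes were 24 rises and 9 falls. The median change was 1.23 on the log2 scale among risen genes and -1.18 among fallen genes, beside -0.03 over all genes. The LPS arrays and the untreated arrays did not overlap for any of the 3926 genes, which was true of 69.2% of all genes tested. Non-overlap is thus shared by all called genes and is no further support for any of those named below. Leaving out untreated array 1 left 979 risen and 1395 fallen genes, and leaving out untreated array 2 left 977 and 1434. The 4 Ezh2-deficient arrays alone, without the wild type arrays in the spread, gave 1466 risen and 1992 fallen genes. In these whole cultures, fewer cells of a type and less RNA per cell cannot be told apart.

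**Figure D1:**
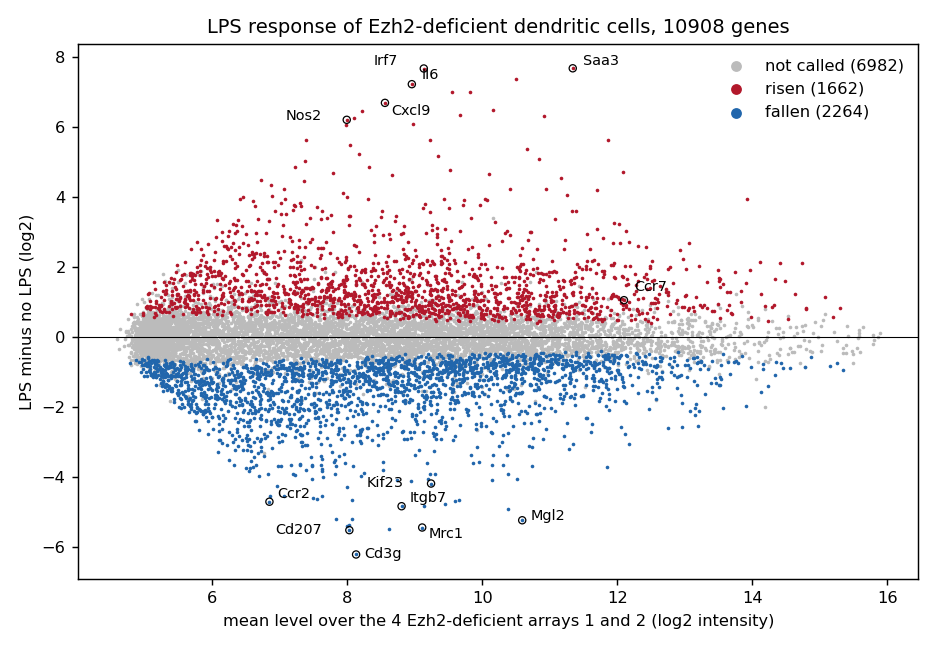
Change with LPS in Ezh2-deficient cells (vertical axis, log2, LPS minus no LPS) against the mean level over the 4 arrays numbered 1 and 2 (horizontal axis, log2 intensity), 1 point for each of 10908 genes, with 1662 risen genes in red, 2264 fallen genes in blue and the other 6982 in grey. Irf7 and Saa3 lie highest at 7.67 and 7.68, and Cd3g, below detection with LPS, lies lowest at a fitted -6.20.

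The 12 largest rises among named genes were all at least 6.25 on the log2 scale and were held by an acute phase protein, interferon-stimulated genes and cytokines. Saa3, an acute phase serum amyloid protein, read 15.36 and 14.998 with LPS, against 7.64 and 7.36 without. Irf7, the transcription factor that amplifies interferon production, read 13.43 and 12.51 with LPS, against 5.21 and 5.38 without. Il6, the pleiotropic inflammatory cytokine, read 12.55 and 12.58 with LPS, against 5.17 and 5.52 without. In each of the 3 genes every LPS array lay at least 7 units above every untreated array. The log2 changes were 7.68 ± 0.35 for Saa3, 7.67 ± 0.41 for Irf7 and 7.23 ± 0.24 for Il6 (SE of the fit), with adjusted p-values of 2.09e-05, 4.46e-05 and 1.22e-05 (limma). The other 9 were Rsad2, Isg15, Oasl1, Cxcl9, Ifit3, Ifi205, Ifit2, Il1a and Il12a, from 7.37 for Rsad2 down to 6.25 for Il12a. Il12a, Cxcl9 and Ifi205 were detected on 1 of the 2 untreated arrays and the others on both. In pair 3 Saa3 read 15.62 with LPS and 10.03 without, and that untreated array was higher than untreated arrays 1 and 2.

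**Figure D2:**
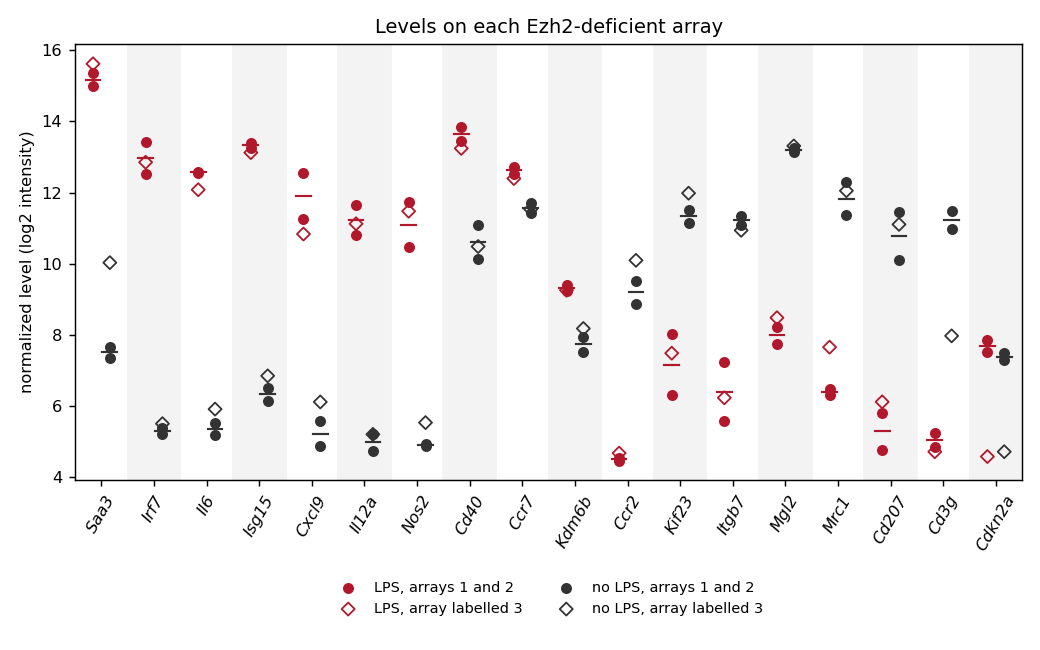
Normalized log2 intensity (vertical axis) of 18 genes on each Ezh2-deficient array, with LPS arrays in red left of untreated arrays in dark grey, filled circles for arrays 1 and 2, open diamonds for pair 3 and short lines for the mean of arrays 1 and 2. Il6 lies at 12.55 and 12.58 with LPS, against 5.17 and 5.52 without, and in Cdkn2a, at the right, both open diamonds lie below every filled circle.

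Among the 21 tested members of the sensing list, 10 rose and 1 fell, with a median change of 0.76. Cd14, the co-receptor that hands LPS to Tlr4, read 14.29 and 13.89 with LPS, against 12.11 and 11.62 without, a change of 2.22 ± 0.39. Ly96, the Tlr4 partner MD-2, changed by 1.72 ± 0.16, and Tlr1, which pairs with Tlr2 on bacterial lipopeptides, by 3.76 ± 0.39. Tlr4 itself (change -0.12, SE 0.42) and the adaptor Myd88 (change -0.11, SE 0.17) were not called, and neither was Tlr2, at -0.81 (SE 0.29, adjusted p 0.0591, limma). Irak1, a kinase recruited by Myd88, was the member that fell, by 0.98 on the log2 scale, and its 2 other probes gave changes between -0.21 and -0.16.

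The NF-kB list had 11 of 15 tested members risen and none fallen, with a median of 1.49, and its risen members included subunits as well as their inhibitors. Tnfaip3, the ubiquitin-editing inhibitor A20 whose promoter is shown above, read 12.86 and 12.44 with LPS, against 10.66 and 10.26 without (2.18 ± 0.23). Nfkbia, the inhibitor IkB-alpha, changed by 1.96 ± 0.16, and the nuclear IkB proteins Bcl3 and Nfkbiz by 2.11 ± 0.19 and 2.03 ± 0.36. Rela, the main transactivating subunit, read 12.01 and 11.84 with LPS, against 11.76 and 11.93 without, and was not called. Among MAP kinase phosphatases and immediate early factors, 9 of 20 tested members rose and 3 fell. Dusp2, a phosphatase of MAP kinases, rose by 3.84 ± 0.27, and Dusp4, of the same family, by 2.43 ± 0.36. The 3 that fell were the zinc finger factors Egr1, Egr2 and Egr3. Egr1 read 10.24 and 9.75 with LPS, against 13.47 and 13.95 without, a change of -3.72 on the log2 scale (SE 0.37).

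The JAK-STAT list had 11 risen and 2 fallen of 18 tested, with 7 risen when untreated array 1 was left out. Stat2, which acts with Irf9 in interferon signalling, read 11.17 and 10.65 with LPS, against 8.13 and 8.18 without (2.75 ± 0.22). Socs3 and Socs1, feedback inhibitors of Jak kinases, changed by 2.73 ± 0.30 and 2.43 ± 0.38. Socs6, of the same family, fell by 1.13 (SE 0.20), and the other fallen member, Socs5, lost its call whichever of the 4 arrays was left out. Of 8 interferon regulatory factors, Irf7, Irf8, Irf1 and Irf9 rose, and Irf2 fell, though not when untreated array 1 or LPS array 2 was left out. Irf8, a factor that dendritic cells need for their development, read 13.28 and 13.92 with LPS, against 11.24 and 11.60 without (2.18 ± 0.28), and Irf5 was not called, at -0.07 ± 0.15.

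Cytokine genes and their soluble partners rose in 22 of 33 tested, with a median of 2.04, and 2 fell. Il12a, the p35 chain of interleukin 12, read 11.64 and 10.80 with LPS, against 5.21 and 4.73 without. Il1a, an alarmin of the interleukin 1 family, read 14.38 and 13.77 with LPS, against 7.59 and 7.92 without. Both were therefore apart by over 5 units on every array, with changes of 6.25 ± 0.38 and 6.32 ± 0.32. Il1b changed by 3.94 ± 0.61 and Il23a by 3.37 ± 0.69. The regulatory cytokine Il10 and Ifnb1, interferon-beta, were below detection without LPS and were at least 9.61-fold and 6.11-fold higher with it. Tnf was not called, at 10.24 and 9.65 with LPS and 8.08 and 9.41 without (change 1.198, SE 0.40, adjusted p 0.0509, limma), and Il12b was not among the genes tested. Ltb, the membrane anchor of lymphotoxin, fell to a level below detection, at 4.73 and 5.08 with LPS, against 7.69 and 8.53 without, which gives at least 7.23-fold lower. Il16, a chemoattractant cytokine, fell by 2.72 on the log2 scale (SE 0.38), with a change of -0.80 on its second probe.

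Of 21 chemokines tested, 12 rose and 1 fell. Cxcl9, a ligand of Cxcr3 on T cells, read 12.56 and 11.25 with LPS, against 5.57 and 4.85 without (6.69 ± 0.55). Cxcl10, another Cxcr3 ligand, read 11.61 and 10.39 with LPS, against 5.10 and 4.81, below detection, without, at least 58.6-fold higher. The inflammatory CC chemokines Ccl5, Ccl3 and Ccl4 changed by 2.11 ± 0.24, 2.08 ± 0.19 and 2.95 ± 0.17. Ccl17, a Ccr4 ligand, read 14.99 and 15.82 with LPS and 14.68 and 14.83 without and was not called (change 0.65, SE 0.37). On LPS array 2 it lay near the top of the intensity scale, so part of a rise may be hidden. Ccl6, a CC chemokine of rodents, fell by 2.18 (SE 0.41).

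Receptors for chemoattractants split, with 5 of 10 tested risen and 3 fallen. Both counts were lower when untreated array 1, untreated array 2 or LPS array 2 was left out. Ccr7, the receptor that guides dendritic cells to lymph nodes, read 12.53 and 12.73 with LPS, against 11.43 and 11.71 without, and its change of 1.06 ± 0.18 passed the test (adjusted p 0.00318, limma). Cxcr5, the receptor for the follicle chemokine Cxcl13, read 8.82 and 9.27 with LPS, against 4.78 and 4.61, below detection, without, at least 15.1-fold higher. Ccr2, the receptor for Ccl2 on inflammatory monocytes, went the other way, below detection at 4.46 and 4.54 with LPS, against 9.52 and 8.87 without, at least 15.3-fold lower. Ccr6, the Ccl20 receptor, was likewise at least 3.26-fold lower with LPS. Pair 3 gave changes of 0.87, 3.43, -5.43 and -2.60 for Ccr7, Cxcr5, Ccr2 and Ccr6. Of the 8 called receptors 7 had the same sign in pair 3, and Cxcr4, the Cxcl12 receptor, did not, at 0.84 ± 0.25 in the fit and -0.08 in the pair. Cxcr2, the remaining receptor that fell, changed by -1.52, and by -0.65, not called, under quantile normalization without background correction. It was also not called with the deposited log2 values, with a larger offset, without the filter on dim probes or with the mean of detected probes. The same held without the intensity trend of the fit, and when any of the 4 Ezh2-deficient arrays was left out.

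Maturation markers rose in 18 of 28 tested, with a median of 1.16, and 2 fell. Both counts were lower when some single arrays were left out. The median was then 1.03 without untreated array 1 and 1.39 without LPS array 1. Slamf1, a receptor of the signalling lymphocyte activation family, read 11.88 and 11.93 with LPS, against 7.06 and 7.19 without (4.78 ± 0.21). Cd70, the ligand of Cd27 on T cells, read 10.82 and 11.98 with LPS, against 7.12 and 7.78 without (3.95 ± 0.56). Cd40, the receptor through which T cells license dendritic cells, read 13.44 and 13.85 with LPS, against 10.14 and 11.08 without (3.03 ± 0.47). On all 3 genes the lower LPS array lay above the higher untreated array by over 2 units. The costimulatory ligand Cd80 changed by 2.56 ± 0.33, and Cd274, the inhibitory ligand PD-L1, by 2.149 ± 0.19. Cd44, a hyaluronan receptor, fell by 1.16 (SE 0.18), while its 4 other probes gave changes from -1.52 to 0.11.

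Of 19 class I genes tested, 13 rose and none fell, with a median of 1.14: Tap1, a subunit of the peptide transporter, read 10.84 and 10.62 with LPS, against 8.92 and 9.06 without (1.74 ± 0.18), and the class I heavy chain H2-D1 changed by 1.23 ± 0.16. The class I light chain B2m read 15.75 and 15.84 with LPS and 15.43 and 15.55 without and was not called. Of 14 class II genes none rose and 3 fell (21.4%, close to the 20.8% over all genes), with a median of -0.06 (1 fell without untreated array 2 and 4 without LPS array 2). H2-DMa, a chain of the H2-M catalyst that loads peptides on class II, read 12.11 and 12.34 with LPS, against 14.02 and 14.21 without, a change of -1.89 on the log2 scale (SE 0.20, adjusted p 0.000418, limma). The class II chain H2-Ab1 (change 0.07, SE 0.16) and its chaperone Cd74 (0.12, SE 0.16) were not called, and stood at 15.7 or higher on all 4 arrays. The highest intensity of any probe on these arrays was 65139 to 66283 before normalization, so these genes lay near the top of the scale and a rise could not be read there. B2m, at 15.43 to 15.84, lay close to that range, and part of a rise may be hidden.

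The interferon-stimulated effectors were the list with the highest share of risen members among the 34 lists: 31 of 34 tested rose and 2 fell, with a median of 2.70. Rsad2, the antiviral protein viperin, read 14.88 and 13.49 with LPS, against 7.01 and 6.62 without (7.37 ± 0.47). Isg15, a ubiquitin-like modifier, read 13.39 and 13.26 with LPS, against 6.13 and 6.50 without (7.01 ± 0.23). Ifit3, an RNA-binding antiviral protein, read 14.05 and 12.76 with LPS, against 6.74 and 7.07 without (6.50 ± 0.45). The promoters of all 3, shown above, hold the ISRE core. On Rsad2 and Ifit3 LPS array 1 was over 1 unit above LPS array 2, and on Isg15 the LPS arrays lay within 0.2 units of each other. Ifitm6, an interferon-induced transmembrane protein family member, fell instead, at 4.74 and 4.89 with LPS, below detection, against 7.48 and 8.13 without, at least 5.85-fold lower. The other that fell, Ifitm1, is of the same family, with changes from -0.96 to 0.72 on its 4 other probes and of -0.0009 in the mean of its detected probes (adjusted p 0.998, limma), and the count of 2 was 1 without LPS array 1, LPS array 2, untreated array 2 or either untreated wild type array. Of the interferon-induced GTPases of the Gbp and Irg families, which act on vacuoles that hold microbes, 9 of 10 tested rose, with Gbp5 at 3.94 ± 0.42 and Igtp at 2.65 ± 0.40. Fewer rose without untreated array 2, and the GTPase median of 1.84 was 1.31 without LPS array 1 and 2.32 without LPS array 2. Gbp7 was the tenth, at 0.89 ± 0.46.

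Motifs were counted in the 300-base windows (250 bases before and 50 after a start) of the 8891 tested genes that matched the promoter table by symbol. The ISRE core was in 15.4% of the windows of genes that rose at least 8-fold, in 6.04% of those of risen genes, in 2.75% of those of fallen genes and in 3.22% over all tested genes, beside 3.44% of all windows of the table. The kappaB motif, on either strand, was in 23.1% of windows of genes that rose at least 8-fold, 12.9% of risen, 9.38% of fallen and 10.5% of all tested genes, beside 8.46% of the table. The GAS motif TTCNNNGAA, the Stat site, was in 8.65%, 7.65%, 7.62% and 7.05% of the same sets, beside 8.30% of the table. By list, 14 of 30 windows of interferon-stimulated effectors held the ISRE core (46.7%) and 9 of 17 windows of NF-kB genes held the kappaB motif (52.9%). Among 19 windows of the mitosis list, most of whose members fell, the kappaB motif was in 4 (21.1%) and the ISRE core in 2 (10.5%), and among windows of genes that fell at least 8-fold the kappaB motif and the ISRE core were in 4.55% each. Both motifs stood together in 38 windows of tested genes. A match of letters is not a bound site, and a gene can have more than 1 window.

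Among enzymes of small mediators 10 of 23 rose and 3 fell. Nos2, the inducible nitric oxide synthase, read 11.73 and 10.46 with LPS on the probe used, against 4.85 and 4.92, below detection, without, at least 62.5-fold higher on this probe, while its other probe gave a change of 0.34. Ptgs2, the prostaglandin synthase COX-2, read 10.31 and 9.48 with LPS, against 4.97 and 4.75, below detection, without, at least 27.2-fold higher. Acod1, which makes itaconate, changed by 4.73 ± 0.32, and Ido1, which degrades tryptophan, by 1.17 ± 0.23. Among the 3 that fell were 2 genes of leukotriene synthesis. Alox5, the 5-lipoxygenase, read 6.64 and 7.70 with LPS, against 10.99 and 11.44 without, a change of -4.05 (SE 0.43), and its partner Alox5ap read 12.89 and 12.22 with LPS, against 14.56 and 14.57 without, a change of -2.01 (SE 0.30). The other probes gave changes of -4.36 and -3.44 for Alox5 and -2.13 for Alox5ap.

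Of 24 inflammasome and cell death genes, 9 rose and 3 fell, with 4 risen when either untreated array was left out. Casp4, the mouse caspase-11 that senses LPS in the cytosol, read 12.44 and 12.02 with LPS, against 9.15 and 9.29 without (3.01 ± 0.19). Mlkl, the executor of necroptosis, rose by 2.66 ± 0.48. Pycard, the inflammasome adaptor ASC, fell by 2.39 (SE 0.26), with a change of -1.102 on the second probe.

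Receptors for antigen uptake held 4 of the risen (17.4%) and 7 of the fallen genes (30.4%) among 23 tested, beside 15.2% and 20.8% over all genes. Mrc1, the mannose receptor, read 6.48 and 6.31 with LPS, against 12.28 and 11.36 without, a change of -5.43 (SE 0.41, adjusted p 0.000123, limma). Cd207, the lectin langerin, read 4.75 and 5.80 with LPS, against 10.10 and 11.46 without, a change of -5.51 (SE 0.59). Mgl2, a galactose-type lectin, read 8.22 and 7.74 with LPS, against 13.14 and 13.26 without, a change of -5.22 (SE 0.26), and the related lectin Clec10a, below detection with LPS, was at least 16.9-fold lower. Cd207 was detected on 1 of the 2 LPS arrays. Each of these C-type lectins was therefore over 3 units lower on both LPS arrays than on either untreated array. Marco, a scavenger receptor, moved the other way, at 9.84 and 10.17 with LPS, against 5.78 and 5.98 without (4.13 ± 0.22). Fcgr4, an activating receptor for IgG, rose by 3.62 ± 0.63, and Clec4e, the receptor Mincle, by 3.02 ± 0.47. The median of the list, -0.21, was -0.70 without LPS array 1 and 0.20 without LPS array 2.

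The other large falls were of varied function. Rnase6, a ribonuclease with antimicrobial activity, Ffar2, a receptor for short-chain fatty acids, and F2rl2, a protease-activated receptor, fell by 5.48 (SE 0.74), 5.39 (SE 0.40) and 5.35 (SE 0.53) on the log2 scale. Pald1, a phosphatase-like protein, read 5.45 and 5.51 with LPS, against 10.79 and 10.52 without. Fcrls, an Fc receptor-like scavenger molecule, read 8.08 and 7.75 with LPS, against 12.77 and 12.89 without. Slc46a3, a lysosomal transporter, fell by 4.82 (SE 0.59) and the kinase Aatk by 5.18 (SE 0.36). Rnase6, Ffar2, F2rl2 and Aatk were detected on 1 of the 2 LPS arrays. Pair 3 gave the same sign for all genes of this paragraph, from -4.02 for Slc46a3 to -6.84 for Fcrls.

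The lysosomal list had 7 risen and 8 fallen of 29 (2 risen without untreated array 2, 4 fallen without untreated array 1). These were 24.1% risen and 27.6% fallen, beside 15.2% and 20.8% over all genes. Gusb, beta-glucuronidase, read 9.93 and 9.70 with LPS, against 12.98 and 12.74 without, a change of -3.05 (SE 0.16), and Man2b1, the lysosomal alpha-mannosidase, fell by 2.59 (SE 0.26). Among integrin and focal adhesion genes 12 of 33 fell and 3 rose, with 6 fallen when untreated array 1 was left out. Itgb7 and Itgae, the 2 chains of the E-cadherin-binding integrin alpha-E beta-7, fell together. Itgb7 read 7.22 and 5.57 with LPS, against 11.10 and 11.33 without, and Itgae read 6.89 and 7.26 with LPS, against 11.55 and 12.09 without. The changes were -4.82 (SE 0.56) and -4.75 (SE 0.41), and the 5 other probes of Itgae gave changes from -4.83 to -0.82. Itgam, the alpha chain of Mac-1, fell by 2.04 (SE 0.39). Itga5 and Itgav, alpha chains of fibronectin and vitronectin receptors, rose by 3.12 ± 0.35 and 2.02 ± 0.20. Tln1, the talin that links integrins to actin, read 5.93 and 5.61 with LPS and 6.15 and 6.09 without and was not called (-0.36 ± 0.21, adjusted p 0.222, limma). Of 26 actin genes 6 fell (23.1%) and 3 rose (11.5%), near the 20.8% and 15.2% over all genes, and fewer rose when either untreated array was left out. Cfl1, the actin-severing cofilin, fell by 1.55 (SE 0.27).

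Most cell cycle genes fell. Of 23 mitotic genes tested 19 fell and none rose, with a median of -2.75, and of 28 replication genes 23 fell and 1 rose, with a median of -1.37 (14 fell without untreated array 1, and the risen one, Tyms, a thymidylate synthase, lost its call when any of 5 single arrays was left out). Cdca3, a trigger of mitotic entry, read 5.93 and 7.33 with LPS, against 10.29 and 10.56 without, a change of -3.80 (SE 0.52). Kif23, a cytokinesis motor, read 6.29 and 8.01 with LPS, against 11.15 and 11.50 without, a change of -4.17 (SE 0.57), and 1 of its 3 other probes gave a change of 0.40. LPS array 2 was over 1 unit above LPS array 1 on both genes. Mcm5, a subunit of the replicative helicase, read 7.53 and 7.78 with LPS, against 11.29 and 10.50 without, a change of -3.24 (SE 0.27). Rrm2, the small subunit of ribonucleotide reductase, fell by 2.96 (SE 0.31). In pair 3 the changes were -5.11, -4.50, -3.44 and -3.29 for these 4 genes.

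Among energy and lipid genes, fewer members of some lists passed the test when single arrays were left out. Of 28 genes of oxidative phosphorylation 13 fell and none rose, with a median of -0.46 and 5 fallen without untreated array 1, and of 21 ribosomal protein genes 6 fell and none rose (1 when LPS array 1 or either untreated array was left out, 11 without LPS array 2). The fallen share of the ribosomal genes was 28.6%, beside 20.8% over all genes. Rpl22, a protein of the large ribosomal subunit, read 8.93 and 9.29 with LPS, against 10.63 and 10.95 without, a change of -1.68 (SE 0.19). In glycolysis and the hypoxia response 5 of 23 rose and 1 fell (none fell without untreated array 1, LPS array 2 or either untreated wild type array), with 2 risen without untreated array 2 and 10 without LPS array 2. The risen and fallen shares of that list were 21.7% and 4.35%, beside 15.2% and 20.8% over all genes. Ndrg1, a stress-responsive gene, read 13.04 and 13.52 with LPS, against 10.34 and 10.84 without (2.69 ± 0.22), and Gapdh was not called, at 0.29 ± 0.26. Cholesterol genes had 10 fallen and 4 risen of 21, with 5 fallen and 2 risen when untreated array 1 was left out. Ch25h, which makes 25-hydroxycholesterol, rose by 3.16 ± 0.49, while Dhcr7, the last step of cholesterol synthesis, fell by 2.21 (SE 0.29).

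Among dendritic cell identity factors 6 of 24 rose and 6 fell, with 3 fallen when untreated array 1 was left out. Batf, an AP-1 factor, read 10.67 and 11.04 with LPS, against 8.005 and 7.32 without (3.19 ± 0.25). Ikzf1, the factor Ikaros, read 9.61 and 9.89 with LPS, against 11.22 and 11.44 without, a change of -1.58 (SE 0.21). Itgax, which encodes CD11c, the integrin chain used to identify dendritic cells, read 7.46 and 7.94 with LPS, against 9.19 and 9.15 without, a change of -1.47 (SE 0.20).

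**Figure D3:**
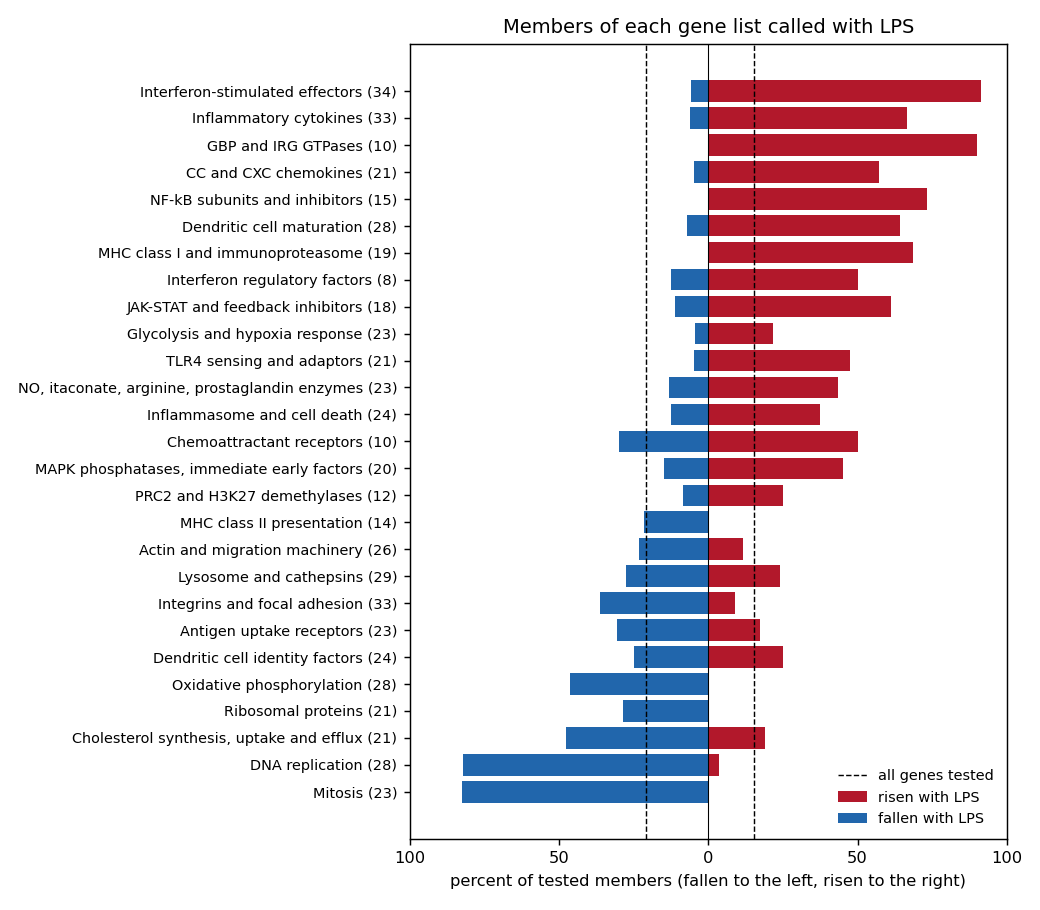
Percent of the tested members of 27 gene lists that fell (blue, left) or rose (red, right) with LPS in Ezh2-deficient cells, with the number tested in brackets, ordered by median change, and dashed lines at the shares over all genes, 15.2% risen and 20.8% fallen. The bars of the interferon-stimulated effectors reach furthest to the right, with 31 of 34 members risen, and those of the mitotic and replication genes furthest to the left.

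Of the 12 Polycomb and demethylase genes tested, 3 rose and 1 fell, with 1 risen when LPS array 2 or either untreated array was left out, 5 risen without LPS array 1 or either wild type LPS array, and none fallen without untreated array 1. Kdm6b, the demethylase that removes methyl groups from lysine 27 of histone H3, kept its call in each of those cases. It read 9.24 and 9.39 with LPS, against 7.52 and 7.94 without, a change of 1.59 ± 0.22 (adjusted p 0.00122, limma), with changes on its 2 other probes of 0.16 and 1.40. Ezh2 was measured by 2 detected probes. The brighter read 10.02 and 11.18 with LPS, against 9.62 and 9.39 without, and was not called (1.09 ± 0.38, adjusted p 0.0549, limma), though it was in 3 of the 8 fits that left out 1 array. The dimmer read 6.10 and 6.61 with LPS, against 4.96 and 5.06 without, below detection (change 1.34, SE 0.28, adjusted p 0.00655 over all named probes, limma). On the dimmer probe the wild type arrays 1 and 2 read 6.90 and 7.03 with LPS and 6.58 and 6.03 without. On the brighter probe they read 10.26 and 10.97 with LPS and 9.78 and 9.57 without, close to the Ezh2-deficient arrays. Where these probes sit relative to the floxed stretch was not known, so neither checks the deletion.

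Markers of other cells were read for their level beside these changes, and their part in them was not tested. Of 7 T and NK cell genes tested, Cd3g, a CD3 signalling chain, had the largest fitted fall of all genes tested. It was below detection with LPS, at 5.24 and 4.82, against 10.97 and 11.49 without, at least 62.8-fold lower. Cd3d, another chain, read 5.54 and 5.06 with LPS, against 7.22 and 8.21 without (a change of -2.42, SE 0.40), while Cd3e was not called (-0.16, SE 0.22) and Cd247, Trac, Lck, Cd8a and Cd4 did not pass the detection filter. Prf1, perforin, was the member that rose, though not when LPS array 2 or either untreated array was left out. The summed level of the 7 genes, on the linear scale, was 836 and 1076 with LPS, against 2644 and 3674 without. Without Cd3g it was 798 and 1047 with LPS, against 637 and 802 without, so 1 gene set its direction. Detection covered 3 and 1 of the 7 with LPS and 6 and 3 without. Of 13 macrophage markers 6 fell and 2 rose, and fewer rose when untreated array 1 was left out. The macrophage sum was 34829 and 23944 with LPS, against 38137 and 40590 without. Without Csf1r it was 31653 and 22877 with LPS, against 30694 and 33582 without, so on the arrays numbered 1 the fall was gone. C1qb, a chain of complement C1q, read 7.00 and 6.84 with LPS, against 9.42 and 10.54 without, a change of -3.07 (SE 0.46).

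Of 18 neutrophil markers 1 rose and 2 fell (none fell when untreated array 1 or LPS array 2 was left out, 5 without untreated array 2). The risen and fallen shares of 5.56% and 11.1% were below the 15.2% and 20.8% over all genes. The riser was Lcn2, the siderophore-binding lipocalin that many cells make after LPS, at 14.998 and 14.38 with LPS, against 10.10 and 7.98 without (5.65 ± 0.68). The neutrophil sum was 51193 and 33626 with LPS, against 41126 and 22724 without, so it was higher on the arrays numbered 1 in both groups. Without Lcn2 it was 18468 and 12351 with LPS, against 40026 and 22472 without, the opposite direction. Of 9 mast cell, basophil and eosinophil markers, Hdc, which makes histamine, rose by 5.09 ± 0.22, and their sum was 15372 and 10851 with LPS, against 4561 and 2605 without, most of it Hdc with LPS. Without Hdc it was 2665 and 1807 with LPS, against 4191 and 2338 without. Cpa3, a mast cell protease, fell, though not when LPS array 2 or either untreated array was left out. B cell markers had 2 of 5 risen, and fewer when untreated array 2 or LPS array 2 was left out. Cd79a, Ms4a1 and Pax5 did not pass the filter. The B cell sums were 957 and 998 with LPS, against 411 and 353 without. Without Blnk they were 238 and 262 with LPS, against 211 and 212 without, so 1 gene made most of that rise. Of 8 erythroid and platelet markers 1 rose (12.5%), and of 12 stromal markers 2 rose (16.7%), near the 15.2% over all genes. The erythroid and platelet sums were 5746 and 3826 with LPS, against 2992 and 2064 without. Without Car2 they were 2907 and 1197 with LPS, against 2362 and 995 without. The stromal sums were 18571 and 18047 with LPS, against 20005 and 17403 without.

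The pair labelled Ezh2-deficient 3, which no fit above used, gave the same direction of change with LPS for nearly all called genes. Its sign matched the fit in 3891 of 3926 called genes (99.1%), 1644 risen and 2247 fallen, beside 5473 of the 6982 genes not called (78.4%) and 85.8% of all genes. Of 2515 genes called with at least a 2-fold change, 2505 had the same sign in the pair, 2421 changed there by at least 50% of the fitted log2 value, and 10 had the opposite sign. The median ratio of the change in the pair to the fitted change was 0.95 over these 2515 genes. Il6 read 12.08 with LPS and 5.90 without in the pair, Isg15 13.12 and 6.84, and Mrc1 7.65 and 12.05. Across genes, which are not independent replicates, the changes of pairs 1 and 2 correlated at Pearson's r of 0.87, pairs 1 and 3 at 0.92 and pairs 2 and 3 at 0.90. Pair 3, at the wild type level for Cdkn2a and Igf2bp3, correlated at 0.95 with the fitted wild type changes. Of the 3926 called genes 99.7% had the same sign in the wild type fit, so the match with pair 3 is not particular to Ezh2-deficient cells.

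**Figure D4:**
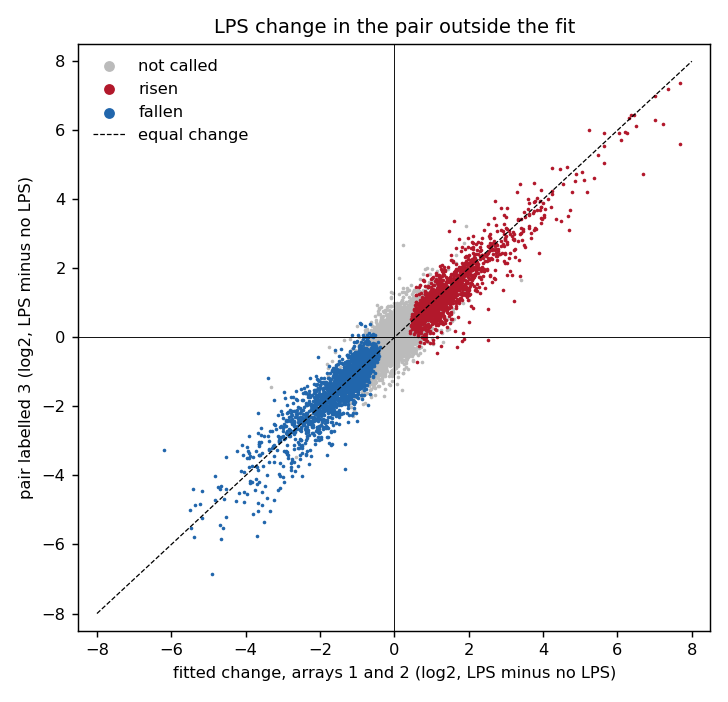
Change with LPS in the pair labelled Ezh2-deficient 3 (vertical axis, log2) against the fitted change of arrays 1 and 2 (horizontal axis, log2), 1 point for each gene, with risen genes in red, fallen genes in blue, genes not called in grey and a dashed line of equal change. Of 3926 called genes 3891 lie in the quadrants of equal sign, and Cd3g, at the far left and below detection with LPS, lies above the line at -3.26 in the pair and -6.20 in the fit.

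The same contrast in wild type arrays 1 and 2 called 3307 genes (30.3%), 1377 risen and 1930 fallen. Of the genes called in Ezh2-deficient cells, 3004 were also called in wild type cells with the same sign, 76.5% of the Ezh2-deficient calls and 90.8% of the wild type calls, and no gene was called in opposite directions. The genotypes share the estimate of the spread and the normalization, not their arrays. The difference between the responses was called for 0 genes (0.00%) by limma, and 169 genes (1.55%) had an unadjusted p under 0.05. That is a smaller share than a p under 0.05 would give with no difference at all, so the test may be too strict. The fit takes all 8 arrays as independent, though deviations of same-numbered arrays correlated at 0.72 between the LPS groups and 0.55 between the untreated ones. With the replicate number as a block, 387 genes had an unadjusted p under 0.05 and 0 were called (limma). The median SE of this difference was 0.34 on the log2 scale, beside 0.24 for the response itself, so a missed call does not show equal responses.

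The 5 genes with the smallest p of the difference are given as values. Cd3g, the T cell receptor chain above, was below detection with LPS in both genotypes and was at least 62.8-fold lower in Ezh2-deficient and at least 7.93-fold lower in wild type cells. Its untreated level was 10.97 and 11.49 in Ezh2-deficient cells and 8.08 and 8.37 in wild type cells. Cfap52, a protein of cilia, was detected only on the 2 Ezh2-deficient LPS arrays among those of pairs 1 and 2, at least 3.5-fold higher than without LPS. It was below detection on the 4 wild type arrays of those pairs and on both arrays of pair 3, so no wild type change is given. The filter asked for detection on 3 arrays, so Cfap52 was tested only because the arrays labelled wild type 3 added a detection. Its absence from the other arrays is thus no separate support for a difference. The difference for Cfap52 had an unadjusted p of 0.00044 (limma) and adjusted over all genes 0.9997. Egr3 changed by -3.39 in Ezh2-deficient and -1.37 in wild type cells on the probe used, and by 0.58 in Ezh2-deficient cells on its second probe. Olfm1, a secreted protein of neurons, changed by -3.67 in Ezh2-deficient and -2.08 in wild type cells. C1qa, a chain of complement C1q, was below detection with LPS in both genotypes, at least 1.66-fold lower in Ezh2-deficient and at least 6.63-fold lower in wild type cells. For Cd3g, Cfap52 and C1qa the fitted changes are limited by the detection floor. In pair 3 Egr3 changed by -1.16 and Olfm1 by -2.19, both nearer the wild type change than the Ezh2-deficient one. The pair was nearer the wild type change in 114 of the 169 genes with an unadjusted p under 0.05 (67.5%) and in 5734 of all 10908 (52.6%).

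**Figure D5:**
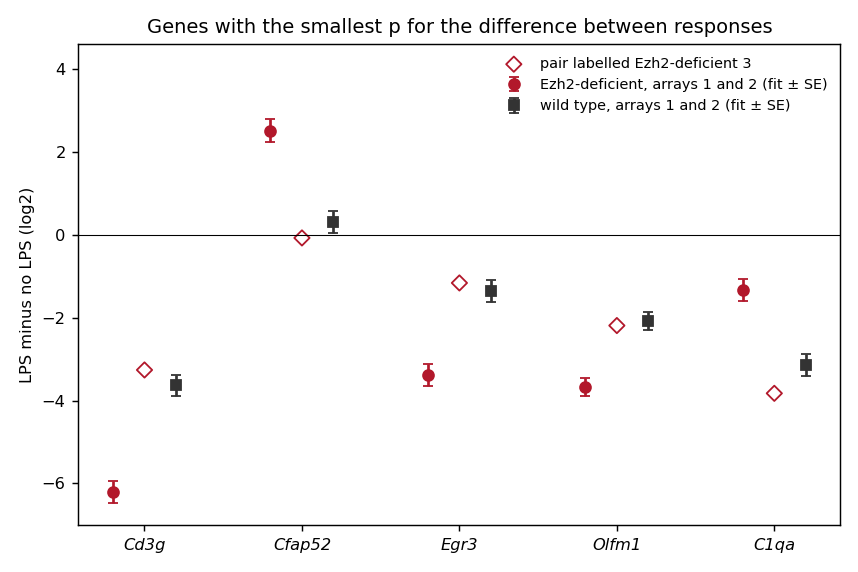
Change with LPS (vertical axis, log2, LPS minus no LPS) of the 5 genes with the smallest p of the difference, as the fitted value of Ezh2-deficient arrays 1 and 2 (red circles, SE bars), the pair labelled Ezh2-deficient 3 (open diamonds) and the fitted value of wild type arrays 1 and 2 (dark squares, SE bars). Each diamond lies nearer the square than the circle, no gene was called for the difference, and the plotted values of Cd3g, Cfap52 and C1qa rest on arrays below detection.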

How the data were processed

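RNA of 12 mouse samples was measured on Illumina bead arrays. Per the file headers, the deposited table holds for each probe a mean bead intensity with its detection p-value, not normalized. The authors also deposited a log2 table, which matched quantile-normalized intensities to within 0.00063 and was used as an alternative. BeadStudio, limma and R 2.15.2 are named in the submitters' processing notes, without steps. Intensities were put through neqc (limma 3.58.1, R 4.3.3, offset 16) over all 12 arrays. Probes detected at p under 0.05 on at least 3 arrays were kept (21049), and 17632 of them had 1 gene symbol, as 34885 of all 45281 probes did, 18 having several and 10378 none (34807 symbols updated by gene identifier). The brightest probe stood for each of 10908 genes.

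limma (lmFit, eBayes with trend, two-sided, Benjamini-Hochberg) was fitted to the 8 arrays numbered 1 and 2 of all 4 groups, with 4 residual degrees of freedom, and was tested on simulated data. The simulated arrays were independent, so that test could not check the independence that the fit assumes. Where every probe of a gene (for Nos2, the probe used) was undetected in 1 group, the fold is a bound against the lowest detected value of each array, or the probe's own value where higher. The number of arrays limits the precision. Named genes are the 12 largest named rises and 12 largest falls, up to 2 risen, 2 fallen and the brightest uncalled member of each of 34 lists (804 symbols, 644 tested), the 5 smallest p-values of the difference, and Ezh2, Cdkn2a, Igf2bp3, Il6, Ccr7, Tln1 and Kdm6b. The other genes named, such as Ly96, Nfkbia, Il1b, Tnf, Ccl5, Cd40, H2-D1, Acod1, Clec10a and Itgam, were added for their known roles after their values were seen. The largest rises and falls and the called list members were taken from genes whose LPS and untreated arrays did not overlap. This held for all 3926 called genes. The members and lists were chosen with earlier results of these data known. The alternatives covered normalization, filters, probe choice, arrays and the replicate block.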

Additional observations from a re-analysis of the deposited data

Results flagged for a closer look

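Cenpa, a centromere histone and the brightest mitotic gene that was not called, was higher with LPS in both Ezh2-deficient pairs (by 0.07 and 0.46 on the log2 scale) and lower with LPS in both wild type pairs (-0.14 and -0.11). The difference between the responses was 0.387 with an SE of 0.45 and did not pass the test (unadjusted p 0.412, limma), and pair 3 changed by -0.05. Of 3417 detected probes without a single gene symbol, which no comparison above used, 367 rose and 348 fell with LPS in Ezh2-deficient cells (20.9% called, limma, adjusted over these probes alone), with changes from -4.70 to 6.35.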

How the results depend on the processing

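The 1662 risen and 2264 fallen genes stayed within 1.5 times those counts under 12 of the 13 other settings that left out no single array, between 1466 and 2308 risen and between 1992 and 2967 fallen. The fit of the 6 arrays labelled Ezh2-deficient (2279 risen, 2916 fallen) was chosen after seeing the data. The exception was the fit of all 12 arrays as labelled, where limma called 0 risen and 0 fallen genes, with 4596 at an unadjusted p under 0.05 and the sign kept in all 3926 called genes; that fit holds the arrays labelled wild type 3. With single arrays left out the risen genes ran from 977 to 1693 and the fallen genes from 1395 to 2271. With the replicate number as a block, 2184 genes rose and 2804 fell. Deviations of same-numbered arrays correlated at 0.23 between the Ezh2-deficient groups, at 0.72 between the LPS groups of the 2 genotypes and at 0.55 between the untreated ones. The labels do not say that numbers pair the samples, and with 2 pairs this stays a hint. The difference between the responses was called for 0 genes in every fit that could give it (132 to 518 at an unadjusted p under 0.05, 387 with the block). Of 122 named genes that were called, Ctsa, a lysosomal carboxypeptidase, reversed: it changed by 1.28 on the brightest probe and by -0.388 in the mean of the detected probes (not called). Its cause was not tested.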

Other observations

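Some genes moved far without passing the test, 198 in all at over 2-fold. Arg1, the arginase that competes with Nos2 for arginine, read 13.29 and 10.45 with LPS, against 7.65 and 9.26 without (change 3.42, SE 1.37, adjusted p 0.0886, limma). Mpo, the granule peroxidase of neutrophils and their precursors, read 5.55 and 4.67 with LPS, against 10.34 and 6.52 without (-3.31, SE 1.35). Fn1, fibronectin, read 9.21 and 7.98 with LPS, against 12.12 and 10.36 without (-2.64, SE 0.95). The arrays of a group lay far apart in these genes: the LPS arrays of Arg1 by over 2 units, the untreated arrays of Mpo by over 3 and those of Fn1 by over 1. These genes were picked for their size after their values were seen.

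Of 1662 risen genes 128 were not detected on either untreated array, and 265 of 2264 fallen genes were not detected on either LPS array.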
